A study of Mus musculus with 16 samples.

Results

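The array used to profile P19 cells carried, beside its probes for known genes, 16194 probes named only by a stretch of the mouse genome. They were taken as all probes that are not controls and whose gene name is written as a chromosome with a start and an end. They made up 29.1% of the 55681 distinct probes on the array and covered 3543 regions. Of these regions, 1067 were named on both strands and 2476 on 1 strand. Each probe is a sequence of 60 bases, and a region had between 1 and 10 probes per strand (median 3). The median region was 7304 bases long, and regions overlapped one another so that they formed 2226 separate clusters. By the array's own descriptions 8184 probes read the forward strand and 8010 the reverse strand, and of the 16076 probes with a position 16068 lay inside the region that named them (build mm9).

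Regions of this kind were put on arrays because large parts of the genome between annotated genes are transcribed into long noncoding RNAs, transcripts that are often spliced and polyadenylated like mRNAs but encode no protein. Many of them are low in abundance and restricted to a cell type, and some start close to the promoter of a coding gene and run away from it on the opposite strand. Some carry a miRNA hairpin and are precursors of a mature miRNA. Sfpq is a nuclear RNA-binding protein that forms a complex with NonO and Pspc1, and this complex is part of the paraspeckle, a nuclear body assembled on the long noncoding RNA Neat1. let-7a is a miRNA of the let-7 family, which is low in pluripotent cells and rises as cells differentiate, and it recognises its targets mainly through its seed. The study asked whether Sfpq controls what miRNAs do to their targets. The region probes extend the measurement to RNAs outside the probes named by a gene, although some regions also hold RNAs that have a gene probe on the array.

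P19 is a mouse embryonal carcinoma line, pluripotent and derived from a teratocarcinoma. The cells were transfected with a control, with a let-7a mimic, with siSfpq (a pool of siRNAs against Sfpq), or with the mimic and siSfpq together, and total RNA was labelled with Cy3 and hybridized to 1-colour arrays. There were 16 arrays, 4 per condition and numbered 1 to 4, whereas the methods of the study name fewer. Arrays 1 and 2 of each condition differed by no more than repeat spots of 1 probe and were counted as 1 sample, so that each condition had 3 samples. Values of single samples are given below in the order arrays 1 and 2, array 3, array 4. Nothing in the labels says whether the samples came from separate cultures, so the p-values measure the spread between these samples.

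The targeted gene was lower in each siSfpq sample than in its control. The Sfpq probe with the larger fall read 12.79, 12.92 and 12.69 (normalized log2 intensity) in control, 12.72, 12.83 and 12.65 with let-7a, 10.98, 12.27 and 10.93 with siSfpq, and with both 11.91, 12.29 and 11.85. The change with siSfpq was -1.41 ± 0.28 (limma adjusted p = 0.0155), and that with both was -0.78 ± 0.28 (limma adjusted p = 0.328). The fall was smallest in siSfpq array 3, which differed from its control by -0.65 (log2), against -1.81 and -1.76 in the other samples. Many of the siSfpq changes given below were also smallest in array 3, and the largest are therefore given with and without that replicate. Whether the weaker fall of Sfpq plays a part in this was not tested.

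The sequences below are those on which the main results rest. The first is the mature let-7a from RefSeq, with its seed (bases 2 to 8) in capitals. The next 3 are the probes of the chromosome 2 region that leads the rises with let-7a, in the order of their positions. The following are the probes of 1 region that fell when siSfpq was added to let-7a (chromosome 6), of the longer of a pair of overlapping regions with the largest rise with siSfpq (chromosome 3) and of the region with the largest fall with siSfpq (chromosome 4). The last 3 share at least 30 bases with a miRNA hairpin in RefSeq, and the longest shared stretch is in capitals. In the others, capitals mark AATAAA, the letters of the common polyadenylation signal. Positions are those of the probe in build mm9.
mmu-let-7a-5p: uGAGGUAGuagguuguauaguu
chr2:33500594-33501874, forward, first probe, probe at chr2:33501484-33501543: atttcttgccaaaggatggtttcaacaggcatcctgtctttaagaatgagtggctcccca
chr2:33500594-33501874, forward, middle probe, probe at chr2:33501619-33501678: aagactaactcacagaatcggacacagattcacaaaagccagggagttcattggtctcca
chr2:33500594-33501874, forward, last probe, probe at chr2:33501799-33501858: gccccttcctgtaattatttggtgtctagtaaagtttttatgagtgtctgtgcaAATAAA
chr6:36790208-36792056, reverse, probe at chr6:36790218-36790277: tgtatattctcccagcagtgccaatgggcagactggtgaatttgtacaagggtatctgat
chr3:93150619-93184368, reverse, probe at chr3:93150732-93150791: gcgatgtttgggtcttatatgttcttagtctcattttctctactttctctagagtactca
chr4:124127144-124334840, reverse, probe at chr4:124200455-124200514: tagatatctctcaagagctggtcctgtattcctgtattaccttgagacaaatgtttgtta
chr15:85412264-85549139, forward, Mirlet7c-2, probe at chr15:85537022-85537081: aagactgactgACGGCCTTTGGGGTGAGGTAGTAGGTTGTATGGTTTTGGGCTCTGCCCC
chrX:50087925-50101700, reverse, Mir363, probe at chrX:50094854-50094913: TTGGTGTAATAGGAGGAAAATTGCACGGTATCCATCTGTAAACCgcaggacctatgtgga
chrX:50087925-50101700, reverse, Mir92-2, probe at chrX:50095036-50095095: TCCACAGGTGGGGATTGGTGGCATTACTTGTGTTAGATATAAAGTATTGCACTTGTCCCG

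The letters AATAAA, read on the strand of the probe, were found in 3.92% of all region probes and in 12.6% of the probes named by a gene. They stood in 4.12% of the region probes well above background on all 4 control arrays and in 3.95% of those on none. CTACCTC, the complement of the let-7a seed, was in 53 of the 16194 region probes (0.327%). It was in 0 of the 34 region probes that fell with let-7a and in 0 of the 45 that rose. The shorter TACCTC, which lies within it, was in 1 of the 34 that fell (2.94%) and in 0 of the 45 that rose, against 96 of the 7083 region probes tested for change (1.36%). A probe covers a small part of its transcript, so these counts say only what the 60 bases of a probe hold.

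To see which regions gave a signal, the scanner software's flag for a spot well above its local background was used. In control cells 6236 region probes (38.5%) carried this flag on all 4 arrays and 7274 (44.9%) on none. At least 1 probe was detected in this way in 2327 regions, 65.7% of the total. With let-7a 6682 probes were detected on all 4 arrays, with siSfpq 5787 and with both 6603. The same share was 61.5%, 64.1%, 59.6% and 63.3% for the probes named by a gene, in the order control, let-7a, siSfpq and both. Of the 308 negative control spots, between 1 and 8 were flagged on an array.

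On all 16 arrays 5483 region probes were well above background, whereas 9099 did not reach all 4 arrays in any condition, many of them flagged on some arrays. Between these, 504 probes were detected on all 4 arrays of 1 condition alone, of which 226 were with let-7a, 189 with both, 53 with siSfpq and 36 in control. The number detected per array was 6779 to 8122 in control, 7157 to 8305 with let-7a, 6559 to 7624 with siSfpq and 7541 to 8245 with both, so that the conditions overlapped. Between arrays of the same number, let-7a was above control each time (8305 against 8122, 8288 against 7752, 7157 against 6779 and 7649 against 7108), as it was for gene probes. The arrays with siSfpq and with both lay on either side of their control. The highest siSfpq array was array 3.

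**Figure D1:**
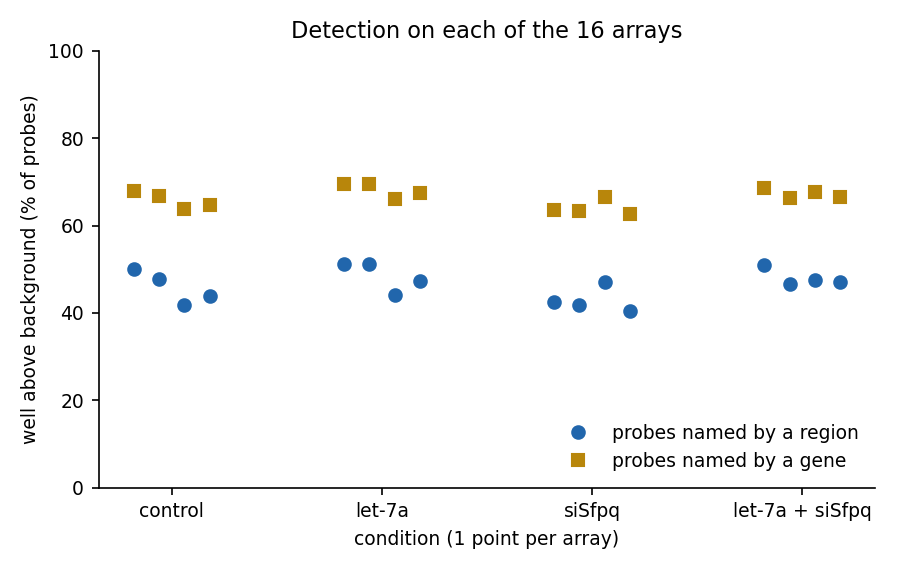
Share of probes well above background (y axis, percent) on each of the 16 arrays, by condition (x axis), for probes named by a region (circles) and by a gene (squares). Region probes lie between 40.5% and 51.3% on every array, below the gene probes, and the 4 conditions overlap.

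Detection varied with base composition, strand and the presence of a gene nearby. Of the region probes with at least 50% G and C bases, 54.0% were detected on all 4 control arrays, against 27.8% of those with under 35% and 34.5% to 35.2% of those between. Base composition alters hybridization as well as background, and its part in the signal was not tested. Reverse-strand probes were detected in 41.1% and forward-strand probes in 35.9%. Where a probe named by a gene lay within 10 kb on the same strand, 50.5% of 4134 region probes were detected. With a gene probe on the opposite strand only, this was 32.2% of 2750, and with none within 10 kb 3214 of 9192.

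Regions named on both strands allow each strand to be read separately. In control cells 554 of the 1067 regions (51.9%) had a detected probe on each strand, 181 on the forward strand only, 219 on the reverse strand only and 113 on neither. Both strands were detected in 599 regions with let-7a, 517 with siSfpq and 589 with both. Signal on both strands was thus seen in 48.5% to 56.1% of these regions, depending on the condition.

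Some known RNAs whose hairpins or exons fall in these regions had probes on both strands, and others on 1 strand only. The region chrX:50087925-50101700 holds the hairpins of Mir363 and Mir92-2, miRNAs of a cluster related to that of miR-17. Its 4 reverse-strand probes that share a hairpin were well above background on all 16 arrays, with 7.74, 7.65 and 8.06 in control for the probe of Mir92-2. The forward-strand probe opposite Mir92-2 was above background on 0 of the 4 control arrays. It was flagged on 2 arrays with let-7a and on 1 with both. Signal was not limited to the strand of a hairpin elsewhere. At Mir8110 the sense and the antisense probe were both flagged on all 16 arrays, as were the antisense probes at Mir18 and Mir6516. In the region chr15:85412264-85549139, which holds Mirlet7c-2, a precursor of the let-7 family, the 2 forward-strand probes of the hairpin were above background on 2 and on 1 of the 4 control arrays. Its reverse-strand probe was above background on none of the 16 arrays. Of the 16 probes matched to a hairpin in either orientation, 9 passed the filter for testing. Of these 1 was called in a comparison, that of siSfpq with control, where 9.77% of all probes were called. With the replicate number as a block 6 were called, 1 of the 9 with let-7a and 5 with siSfpq, where 16.4% and 33.3% of all probes were called. These included the 4 reverse-strand probes of Mir363 and Mir92-2, lower with siSfpq by 0.53 to 0.54 on the log2 scale (limma adjusted p = 0.0187 to 0.0437), and the antisense probe of Mir8110, higher with let-7a by 0.45 (limma adjusted p = 0.0369).

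Changes were tested for 7083 region probes (43.7%), from 2488 regions, that carried the flag on all 4 arrays in 1 or more of the conditions and had a value on every array, which 38 region probes had not, together with 25857 of the 39487 probes named by a gene. The other 9111 region probes were not tested. A probe that passed through 1 condition only had to be higher there, so no count over the tested probes is read as support for a direction. Calls were made in a limma fit of all 32940 probes and 4 conditions, where the p-value adjusted by Benjamini-Hochberg had to lie under 0.05.

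With let-7a, 45 region probes from 25 regions were higher than in control and 34 from 22 regions were lower, that is, 0.635% and 0.48% of those tested. Of all probes tested, 2.98% were called higher and 1.06% lower. With siSfpq, 137 region probes from 76 regions were higher and 252 from 132 regions were lower (1.93% and 3.56%), against 4.23% and 5.54% of all probes. A fit of only these 2 conditions called 0 region probes with siSfpq and 0.00304% of all probes. With both, 16 were higher and 4 lower than in control (0.226% and 0.0565%), against 0.644% and 0.082% of all probes, a split that was near even with the replicate block, as given below. When siSfpq was added to let-7a, 27 were higher and 30 lower than with let-7a alone (0.381% and 0.424%), against 0.559% and 1.32% of all probes. In that comparison the split of higher and lower depended on the replicates, as given below, and on the background correction, with 25 and 53 after normexp and 23 and 46 in the authors' values. In each of the 4 comparisons the share called was smaller for region probes than for all probes, a difference that was not tested. Their median normalized log2 intensity was 6.22 to 6.39 on the arrays, and that of the tested gene probes 9.13 to 9.16, and the part of intensity in the number of calls was not tested. The median change of the tested region probes was -0.11 with let-7a, 0.00 with siSfpq, -0.05 with both and 0.06 for both against let-7a. Over all probes it was -0.05, 0.01, -0.02 and 0.03.

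These counts depended on the replicates. Same-numbered samples of different conditions deviated together, and with the replicate number as a block 622 region probes (8.78% of those tested) were called with let-7a, where 16.4% of all probes were. With siSfpq 1632 (23.0%) were called, against 33.3% of all probes, with both 272 (3.84%), against 6.3%, and for both against let-7a 400 (5.65%), against 9.74%. All 79, 389, 20 and 57 probes called without the block were among them, with the same direction. The balance of directions turned in 3 comparisons. With let-7a 224 were higher and 398 lower with the block, and 298 and 449 without replicate 3. With both against control 135 were higher and 137 lower with the block, whereas without replicate 3 they were 274 and 232. For both against let-7a 227 were higher and 173 lower with the block, and 488 and 307 without replicate 3. Without replicate 3 of each condition 747, 2089, 506 and 795 region probes (10.5%, 29.5%, 7.14% and 11.2%) were called, against 21.7%, 42.3%, 12.8% and 19.7% of all probes. Without replicate 4, which leaves arrays 1 and 2 and array 3, no region probe was called in any of these comparisons, where 0.00607% of all probes were called with let-7a and 0% in the others. The change of 1.94 given below for the chromosome 2 region was 1.81 without replicate 4. The changes named below are those of the fit to all samples, and none of the 28 named changes past the threshold there kept it without replicate 4.

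**Figure D2:**
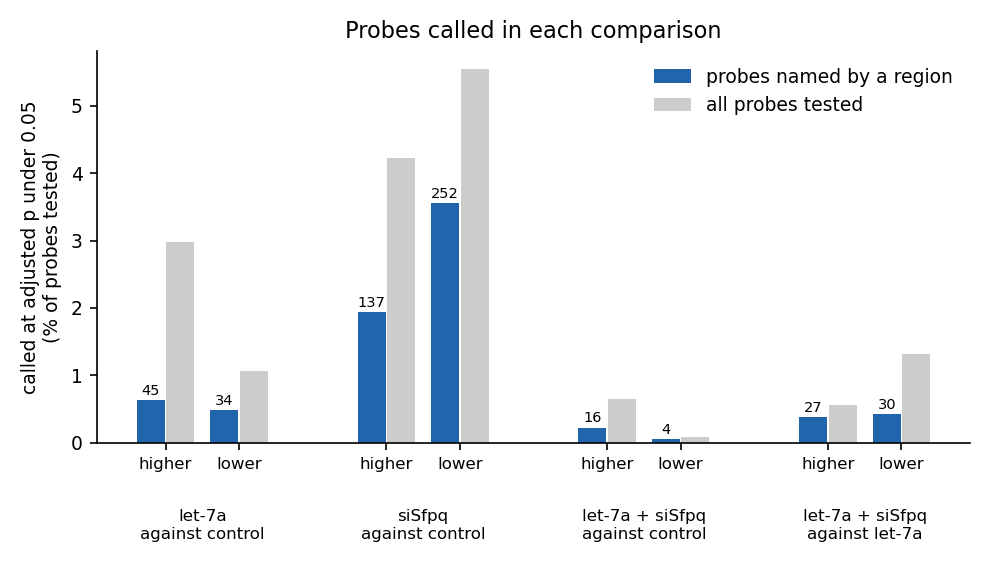
Share of tested probes called at an adjusted p under 0.05 in limma (y axis, percent) in 4 comparisons, higher and lower, for probes named by a region (dark bars, with their number) and for all probes tested (light bars). Most calls of region probes were made with siSfpq, 137 higher and 252 lower, and the dark bar is below the light bar in each pair.

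The regions below were ranked among region probes that were called, were flagged as detected on each array of the pair of conditions and did not overlap between the samples compared. Dimmer probes with larger changes are given separately. By this rule the region with the largest rise with let-7a was chr2:33500594-33501874 on the forward strand, a stretch of 1281 bases. Its last probe read 7.39, 7.38 and 7.53 in control, 9.52, 8.87 and 9.73 with let-7a, 6.79, 7.28 and 7.16 with siSfpq, and with both 7.36, 7.71 and 7.93. The 3 let-7a samples lay above all others, whereas those with both overlapped control. The rise with let-7a was 1.94 ± 0.23 on the log2 scale (SE, limma adjusted p = 0.00134, n = 3), and the fall when siSfpq was added to let-7a was -1.71 ± 0.23 (limma adjusted p = 0.00665). The middle probe read 4.37, 4.56 and 4.79 in control, 7.92, 7.04 and 7.82 with let-7a, 2.29, 2.57 and 1.77 with siSfpq, and with both 5.10, 4.93 and 4.99. Its change was 3.02 ± 0.28 with let-7a against control and -2.59 ± 0.28 for both against let-7a (limma adjusted p = 0.000424 and 0.00318). With siSfpq alone it was not well above background on any array. The first probe was well above background on all 4 let-7a arrays and on no control array, so that its rise is at least 6.06-fold (limma adjusted p = 0.000424). It was tested only because it was high with let-7a, so its direction is a description.

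**Figure D3:**
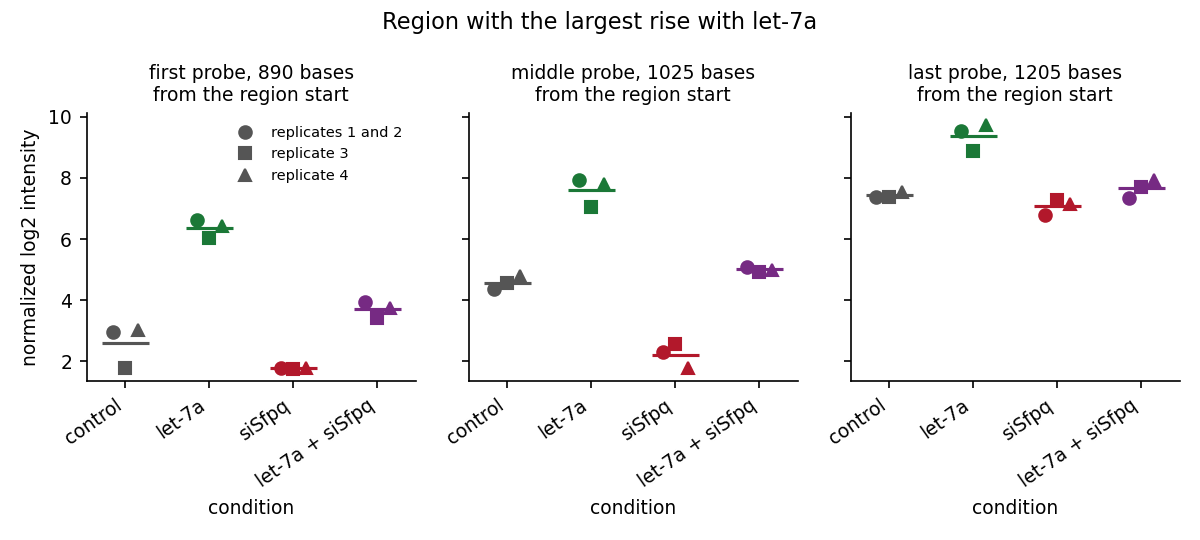
Normalized log2 intensity (y axis) of the 3 forward-strand probes of the chromosome 2 region in each condition (x axis), 1 point per sample with the symbol giving its replicates and a line for the mean. In each panel the 3 let-7a samples are the highest, and the samples with let-7a + siSfpq lie below them.

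The nearest gene probe to this region was on the same strand and belongs to C130021I20Rik, itself a noncoding transcript. This gene probe was 140 bases from the last probe and overlapped the middle probe (gap of 0 bases). It rose by 3.70 with let-7a (log2, limma adjusted p = 0.000902). On the opposite strand, 6729 bases away, lay a probe of Lmx1b, a homeobox transcription factor gene of limb, kidney and midbrain development, with a log2 change of 0.30. The gene probe and the probes of the region therefore read the same stretch and strand, and their joint rise is not agreement between separate features. The gene across from them was not called.

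Among the other largest rises with let-7a by the same rule, chr11:93994795-94017045 (forward) had no gene probe within 10 kb on either strand. Its probe read 7.80, 7.62 and 7.77 in control and 9.24, 8.83 and 9.16 with let-7a, a rise of 1.35 ± 0.27 (limma adjusted p = 0.0167). It read 9.40, 8.99 and 9.21 with both, 1.48 ± 0.27 above control (limma adjusted p = 0.0292), so that it was also high when Sfpq was targeted. With siSfpq alone it read 8.87, 7.69 and 8.75. That change was 0.71 ± 0.27 and was not called (limma adjusted p = 0.111, and 0.0135 with the replicate block). The region chr1:63319842-63349796 (forward), whose probe lies 28 bases from a probe of Zdbf2, an imprinted gene expressed from the paternal allele, read 11.18, 10.69 and 10.78 in control and 12.44, 11.94 and 12.003 with let-7a. The rise was 1.24 ± 0.21 (limma adjusted p = 0.00845), and the Zdbf2 probe rose by 1.20. The others were chr5:77239012-77271614 (forward, 1.28 ± 0.31, 2 of 3 tested probes called) and chr8:89996710-90049453 (forward, 1.24 ± 0.28). In the region on chromosome 8 the 3 probes tested were all called higher, with changes of 1.15 to 1.24.

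By the same rule, the largest fall with let-7a was smaller than the largest rise. The region chr19:60220577-60238494 (forward) read 5.90, 5.89 and 6.14 in control and 4.66, 5.09 and 4.29 with let-7a, a fall of 1.29 ± 0.33 (log2, limma adjusted p = 0.0495). It was also lower with siSfpq (limma adjusted p = 0.0396), at 4.37, 5.36 and 4.57, and with both (limma adjusted p = 0.0234), at 3.75, 4.63 and 3.88. Its same-strand neighbour E330013P04Rik had a change of -1.61 and was not called. The other falls were chr16:94775095-94775634 (forward, -1.18 ± 0.27), chr4:145450600-145461600 (reverse, -1.11 ± 0.28), chr11:60728207-60745369 (reverse, -1.07 ± 0.21) and chr10:21855725-21867925 (reverse, -0.94 ± 0.23). On the chromosome 11 strand only 1 of 4 tested probes was called, and their changes ran from -1.07 to 0.22. Of the tested probes on the strand, 1 of 3 was called in the region on chromosome 19, 2 of 3 on chromosome 16 and 1 of 2 on chromosome 4. The called probe on chromosome 11 lies 3052 bases from Map2k3os, a transcript antisense to a MAP kinase kinase gene, which fell by 0.99 (log2, limma adjusted p = 0.00377).

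With siSfpq more region probes were called. The most raised pair of regions, chr3:93150607-93151201 and chr3:93150619-93184368 (both reverse), overlap and are read here as 1 place. The probe of the longer one read 4.44, 4.59 and 4.28 in control and 7.59, 5.39 and 7.47 with siSfpq. Arrays 1 and 2 and array 4 were far above control and array 3 closer to it, so that the rise was 2.38 ± 0.47 (limma adjusted p = 0.0144) with all samples and 3.17 without replicate 3. With let-7a it read 2.61, 3.09 and 2.47, not well above background on any array, and with both 5.76, 5.66 and 5.88. When siSfpq was added to let-7a the rise was at least 4.49-fold (limma adjusted p = 0.0122). No gene probe lay within 10 kb of it.

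The region chr8:87513394-87514107 (reverse) read 4.97, 5.36 and 5.16 in control and 7.10, 6.47 and 7.27 with siSfpq, a rise of 1.78 ± 0.32 (limma adjusted p = 0.0101, and 2.12 without replicate 3). It also rose when siSfpq was added to let-7a, by 1.52 ± 0.32 (limma adjusted p = 0.0347). In the region chr8:87504644-87513694 (reverse), which overlaps it, 1 probe rose by 1.55 ± 0.32 in the same comparison, where 2 of 5 tested probes were called and the changes ran from 0.08 to 1.73. The probe lies 5723 bases from a same-strand probe of Junb, an immediate-early AP-1 transcription factor gene, whose change was 0.59 and was not called.

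The region chr3:40439525-40509975 (forward) read 7.998, 7.88 and 7.96 in control and 10.28, 8.35 and 10.10 with siSfpq, 1.63 ± 0.39 higher (limma adjusted p = 0.028, and 2.20 without replicate 3). Its 4 probes were all called. A probe of Intu, a planar polarity gene needed for cilia, rose by 1.26 (log2, limma adjusted p = 0.0316) on the same strand 382 bases away. Another Intu probe had a change of -0.02 and was not called (limma adjusted p = 0.963). The region chr10:18036490-18059965 (forward) was the exception to the weak replicate 3. It read 5.97, 5.82 and 5.80 in control and 7.45, 7.55 and 7.38 with siSfpq, a rise of 1.60 ± 0.14 (limma adjusted p = 0.00123, and 1.53 without replicate 3), and 4 of its 5 tested probes were called. With both it was 0.99 ± 0.14 above control (limma adjusted p = 0.00953).

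The largest fall with siSfpq was in chr4:124127144-124334840 on the reverse strand. Its most changed probe read 9.28, 8.70 and 9.14 in control, 9.90, 8.81 and 9.87 with let-7a, 6.34, 7.39 and 5.98 with siSfpq, and with both 8.38, 7.91 and 8.17. The siSfpq samples lay below all others, array 3 least so. The fall was 2.47 ± 0.37 (log2, limma adjusted p = 0.00629), and the change was -3.05 without replicate 3. Its 5 reverse-strand probes were each called lower, with changes between -2.47 and -2.26. On the forward strand, near Pou3f1, a POU transcription factor gene of early neural cells, the 2 probes well above background on all arrays had changes of -0.29 and 0.15. Only the reverse strand was called, and the difference between strands was not tested.

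The other falls with siSfpq showed the same weak array 3. In chr19:23068397-23190256 (reverse) 6 of 9 tested probes were called lower, and the most changed of those above background in both conditions read 7.75, 6.83 and 7.64 in control and 5.47, 5.69 and 4.75 with siSfpq (-2.10 ± 0.40, and -2.58 without replicate 3). The region chr4:123572090-123581365 (reverse) fell by 1.79 ± 0.27 (log2, and changed by -2.30 without replicate 3) in the most changed probe, where 3 of 4 were called, with its same-strand neighbour 4930535I16Rik at -1.95 and the opposite-strand Mycbp, which encodes a Myc-binding protein, at 0.19. The others were chr15:95965249-96114921 (reverse, -1.70 ± 0.22, and -2.05 without replicate 3) and chr5:31856417-31916414 (forward, -1.61 ± 0.23, and -1.95 without replicate 3), where 3 of 3 and 3 of 5 tested probes were called. In each of these regions another probe was also called lower with let-7a and siSfpq together, -1.02 ± 0.18 and -0.95 ± 0.19 against control (limma adjusted p = 0.0234 and 0.0426), where 1 of 3 and 1 of 5 tested probes were called. Over all region probes called with siSfpq, the median difference from the control of the same replicate was 1.19, 0.64 and 1.28 for those higher and -1.28, -0.52 and -1.41 for those lower. Replicate 3 was the weakest in both directions, as for Sfpq itself, and since all 3 samples enter the call this is a description only.

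**Figure D4:**
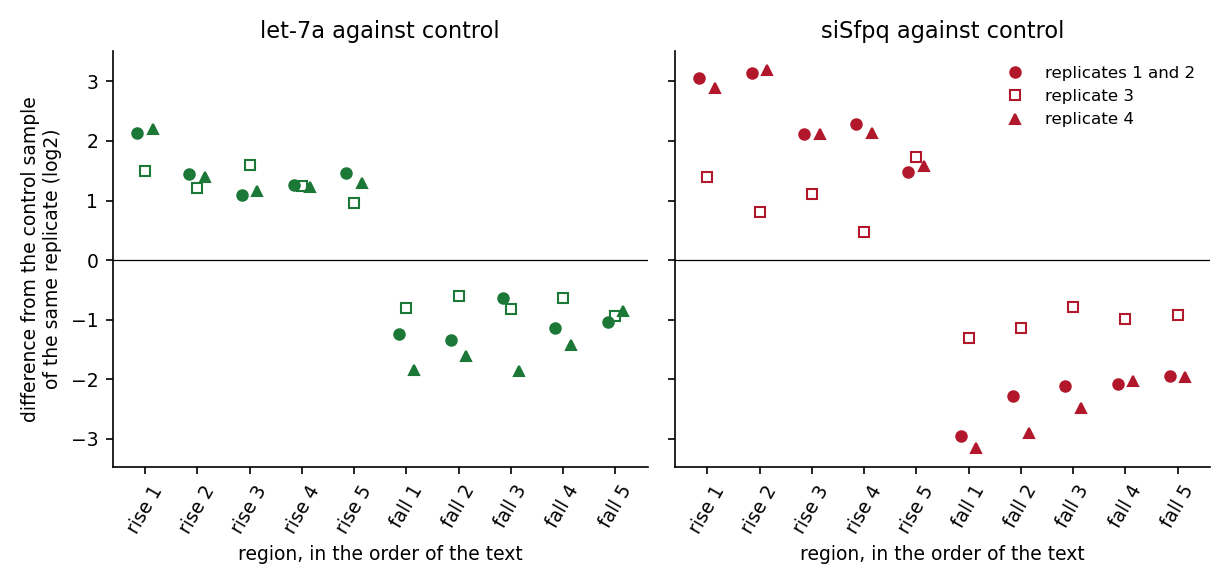
Difference from the control sample of the same replicate (y axis, log2) for the 5 largest rises and falls with let-7a (left) and with siSfpq (right), by region (x axis) and with open squares for replicate 3. With siSfpq the open square is the closest to 0 in 9 of 10 regions, and the exception is the region on chromosome 10.

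The samples with both gave a separate reading of the siSfpq effect, because the comparison of both with let-7a shares no sample with that of siSfpq with control. Of the 137 region probes called higher with siSfpq, 131 were also higher when siSfpq was added to let-7a, with a median change of 0.53. Of the 252 called lower, 224 were also lower, with a median of -0.45. Over all tested region probes 60.7% had a change above 0 in that comparison and the median was 0.06. The median changes of the same probes in the first comparison were 1.08 and -1.09, and 21 and 23 of them were called again in the same direction. For let-7a, all 45 probes called higher were higher with both than with siSfpq alone (median 0.98), and 29 of the 34 called lower were lower (median -0.23). Over all tested region probes 46.0% were higher and 54.0% lower there, with a median of -0.04, a comparison of means that was not tested. Samples with the same replicate number deviated together in all conditions, so these readings are separate in samples but not in replicates.

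With both, the other region among the largest rises by the same rule was chr9:88575075-88611650 (reverse), at 6.10, 6.26 and 6.08 in control, 7.84, 7.36 and 7.85 with siSfpq, and with both 7.47, 7.41 and 7.51. With both it was 1.31 ± 0.16 above control (limma adjusted p = 0.00393), and 2 of 3 tested probes were called, with changes of 0.27 to 1.31. When siSfpq was added to let-7a, the largest falls by the same rule were in the chromosome 2 region and in chr6:36790208-36792056 (reverse), which lies 6678 bases from Dgki, a diacylglycerol kinase gene, on the same strand. The probe of the latter read 4.84, 4.41 and 4.98 in control, 7.26, 6.38 and 6.97 with let-7a, 3.20, 3.78 and 3.56 with siSfpq, and with both 4.81, 5.05 and 4.96. It was highest with let-7a alone, lowest with siSfpq alone, where it was not well above background on any array, and overlapped control with both. Its change was 2.13 ± 0.27 with let-7a and -1.93 ± 0.27 for both against let-7a (limma adjusted p = 0.00165 and 0.00761).

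Whether siSfpq changed the effect of let-7a was tested as an interaction. No region probe was called in limma, with 0% of all probes called, whereas 336 of the 7083 region probes (4.74%) had an unadjusted p under 0.05, against 5.69% of all probes. The count was also 0 with the replicate as a block, where 0.0213% of all probes were called. Without replicate 3 it was 814, against 17.6% of all probes, without replicate 4 it was 0, and with arrays 1 and 2 counted separately it was 26 (0.367%), against 0.525% of all probes.

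Some region probes were well above background on all 4 arrays of 1 condition and on none of another. With let-7a against control there were 19 such probes seen with let-7a alone and 2 seen in control alone. Of these, 2 and 0 were called, against 4.03% of all probes tested. With siSfpq 8 were seen with siSfpq alone and 15 in control alone. Of these, 6 and 9 were called, against 9.77% of all probes tested. For both against let-7a 13 were seen with both alone and 10 with let-7a alone. Of these, 4 and 2 were called, against 1.88% of all probes. The same counts were not made over gene probes. Of the gene probes, 61.5% were detected on all 4 arrays in control, 64.1% with let-7a, 59.6% with siSfpq and 63.3% with both. A probe that was tested only through the condition in which it was high had to differ, so these bounds and their p-values describe the probes and support no direction. Besides those above, chr2:150091945-150119782 (forward) was at least 4.11-fold higher with siSfpq (limma adjusted p = 0.0109) and chr4:146017200-146029700 (forward) at least 2.95-fold (limma adjusted p = 0.0258). A second probe of the chromosome 3 place was at least 4.56-fold higher with siSfpq and was not called (limma adjusted p = 0.09, and 0.0254 with the replicate block). In chr1:42758928-42771337 (forward), next to 2900092D14Rik, let-7a gave at least 2.69-fold, also not called (limma adjusted p = 0.0602, and 0.0112 with the block). A probe of chr19:23064968-23069896 (forward) was at least 4.48-fold higher with let-7a than with both (limma adjusted p = 0.00761). With both against control, 26 probes were seen with both alone and 1 in control alone. None was called, against 0.726% of all probes tested. The overlapping regions chrX:135882029-135892277 and chrX:135880775-135891525 (reverse), at Platr21, a transcript named for its association with pluripotency, were at least 2.25-fold and 1.88-fold higher (limma adjusted p = 0.139 and 0.116, and 0.0472 and 0.015 with the block), and the largest bound was that of chr4:101040523-101080248 (forward), at least 2.42-fold (limma adjusted p = 0.462).

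Of a list of 40 known long noncoding RNAs, 29 had a gene probe on the array and 16 of these lay inside one or more of 32 regions with 212 region probes. Of these, 127 were tested. With let-7a 2 of them rose and 2 fell, whereas siSfpq gave 0 rises and 3 falls. These are 3.15% and 2.36% of the 127, against 4.03% and 9.77% of all probes. With the replicate block 22 (17.3%) and 18 (14.2%) were called, against 16.4% and 33.3% of all probes. There was none with both, and 1 higher and 0 lower when siSfpq was added to let-7a, where 0.726% and 1.88% of all probes were called. With the block 4 (3.15%) and 10 (7.87%) were called in these 2 comparisons, against 6.3% and 9.74% of all probes. The median change of the 127 probes was -0.18 with let-7a and 0.06 with siSfpq.

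The calls fell in the regions of 3 of these RNAs, on the sense strand of Pantr1 and Ftx and on the antisense strand of Mir17hg. In chr1:42689799-42749799 (reverse), on the strand of Pantr1, a noncoding RNA beside the neural factor gene Pou3f3, a probe read 8.30, 8.46 and 8.47 in control, 9.48, 9.22 and 9.51 with let-7a, 7.42, 8.002 and 7.40 with siSfpq, and with both 8.47, 8.86 and 8.82. It rose by 0.99 ± 0.18 with let-7a (limma adjusted p = 0.0116) and fell by 0.80 ± 0.18 with siSfpq (log2, limma adjusted p = 0.0236). A second probe changed by 0.83 and -0.88, and the Pantr1 gene probe by 0.99 and -0.76. On the strand opposite to Mir17hg, the host transcript of the miR-17 cluster, 2 probes of chr14:115423660-115463160 (reverse) fell with let-7a by 0.72 ± 0.15 and 0.73 ± 0.18 (log2). Another, opposite the hairpin of Mir18, fell with siSfpq by 0.80 ± 0.22 (log2, limma adjusted p = 0.0431). The 8 tested probes on the strand of Mir17hg were not called, with changes of -0.83 to -0.06 with let-7a, but with the replicate block 1 was called with let-7a and 4 with siSfpq, where 16.4% and 33.3% of all probes were. In chrX:100745320-100819322 (reverse), on the strand of Ftx, a noncoding RNA of the X-inactivation centre, 1 probe was 1.05 ± 0.22 higher with both than with let-7a (limma adjusted p = 0.0324).

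Because Sfpq belongs to the paraspeckle, the neighbourhood of Neat1 and of Malat1, a nuclear RNA next to it, was of interest. The region chr19:5771425-5848475 spans both. Its tested reverse-strand probe, whose nearest gene probe is that of Malat1, read 10.14, 9.48 and 10.07 in control, 11.36, 10.05 and 11.18 with let-7a, 9.95, 9.39 and 9.77 with siSfpq, and with both 11.30, 9.71 and 11.21. The changes were 0.97 ± 0.43 with let-7a and -0.20 ± 0.43 with siSfpq, and neither was called (limma adjusted p = 0.284 and 0.827). With the replicate block the change with let-7a was past the threshold (limma adjusted p = 0.00917). Array 3 was the lowest in each condition. The 7 forward-strand probes above background on all arrays, on the strand opposite to both RNAs, had changes of -0.44 to 0.10 with let-7a. Which of them lie across from either RNA was not determined. With the block 3 of 11 tested probes on the strand opposite to Malat1 were called with let-7a, where 16.4% of all probes were. At Tug1, which encodes an abundant nuclear RNA, all 15 sense probes and 9 of 10 antisense probes were detected in control, and their changes with siSfpq lay between -0.38 and 0.39. With the replicate block 3 of the 15 sense probes were called, 1 higher and 2 lower, where 33.3% of all probes were called. At Gas5, a snoRNA host gene, the 5 sense probes had changes of -0.68 to -0.26 with let-7a, and none was called, but 2 were lower with the replicate block, where 16.4% of all probes were called.

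Probes of the same region and strand were compared with each other. Whether they read 1 transcript is not known. Of 1799 strands of a region with at least 2 tested probes, 187 held a probe called with siSfpq. In 41 of these all tested probes were called, in 146 only some, and in 0 were probes called in opposite directions. With let-7a 41 strands held a call, 9 of them in all probes and none in opposite directions. Across the 1799 strands Pearson's r between the changes of the first and the last probe was 0.61 with siSfpq and 0.60 with let-7a, as a description over points that share samples and often a transcript.

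Opposite strands of 1 region were compared in the same way. Of the 635 regions with a tested probe on each strand, 83 held a call with siSfpq. In 76 of these only 1 strand was called, in 6 both were called in the same direction and in 1 in opposite directions. With let-7a 19 held a call, of which 18 were on 1 strand and 1 on both, in the same direction. Across the 635 regions r between the mean changes of the strands was 0.11 with siSfpq and 0.14 with let-7a, as a description.

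The regions with both strands lower with siSfpq were chr9:39982939-39992189, with 5 forward and 2 reverse probes called, chr19:23068397-23190256, chr4:123572090-123581365 and chrX:54627918-54638568 near Rbmx, which encodes an RNA-binding protein of splicing. On both strands of the first array 3 was again the closest to control, with 7.01, 6.19 and 6.97 in control and 5.15, 5.68 and 5.29 with siSfpq on the reverse strand. Those with both strands higher were chr11:97505439-97522274 and chr4:147105275-147171025. In chr8:122920901-123008463 a forward probe fell by 1.76 (log2) and a reverse probe rose by 1.0003. Apart from the chromosome 4 region at Pou3f1, the widest gaps with siSfpq between the mean changes of the strands were in chr19:44651106-44657612 and chr11:49932129-49938154. The means were taken over probes flagged on all 16 arrays. On chromosome 19 the 3 forward probes, on the strand of Hif1an, which encodes an oxygen-sensing hydroxylase, averaged -1.18 and the reverse probe had a change of 0.68. On chromosome 11, at the ubiquitin ligase gene Rnf130, the change was -0.57 on the forward and 0.86 on the reverse strand. The forward probes were called. Neither reverse probe was called (limma adjusted p = 0.353 and 0.0568, and 0.0515 and 0.0206 with the replicate block). With let-7a the widest gaps were in chr16:34524589-34573439 (-0.87 forward, 1.59 reverse), chr8:90000619-90061169 (1.08 forward, -0.15 reverse) and the Malat1 and Neat1 region, and no probe of these was called. With the replicate block the most changed reverse probe of the first (1.90, limma adjusted p = 0.00124) and its forward probe (-0.87, limma adjusted p = 0.0252), the forward probe of the second (1.26, limma adjusted p = 0.014) and the reverse probe near Malat1 (0.97, limma adjusted p = 0.00917) were past the threshold. The reverse-strand probe in the first of these read 7.67, 5.40 and 7.50 in control and 9.66, 7.05 and 9.55 with let-7a, with array 3 far below the others in both conditions.

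The changes of the regions were also set beside those of the nearest gene probe within 10 kb. Over 2043 tested region probes with such a same-strand neighbour, r between the changes was 0.51 with siSfpq and 0.61 with let-7a, and over 1231 with an opposite-strand neighbour it was 0.11 and 0.20, as a description, since many region probes share a neighbour. Of the 182 called with siSfpq that had a same-strand neighbour, the gene probe was called in the same direction for 83, in the opposite direction for 0 and not called for 99. Of all probes tested, 9.77% were called with siSfpq. The 2043 region probes shared 585 gene probes, and some gene probes overlap a region probe, so these are not counts of separate features. Of the 52 with an opposite-strand neighbour the gene probe was called in the same direction for 4 and not called for 48, again against 9.77% of all probes. Whether a region and its same-strand neighbour are parts of 1 RNA cannot be told from the arrays.

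**Figure D5:**
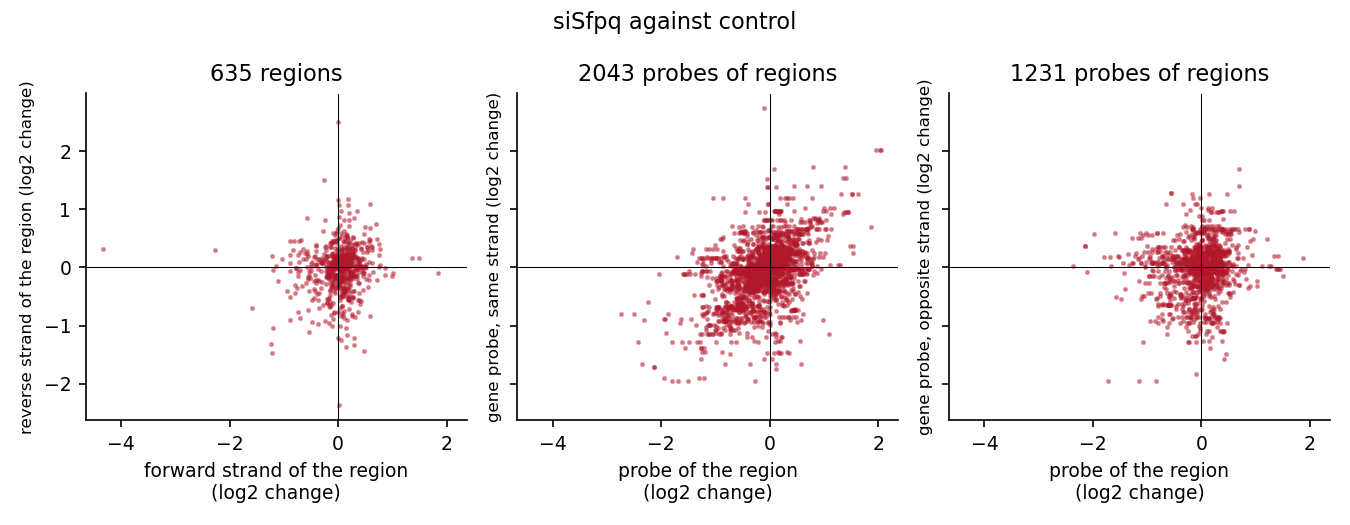
Log2 changes with siSfpq against control, for the forward (x axis) and reverse (y axis) strand of 635 regions (left), and for region probes (x axis) against the nearest gene probe within 10 kb (y axis) on the same (middle, 2043 probes) or the opposite strand (right, 1231 probes). The cloud is drawn out along the diagonal in the middle panel only (r = 0.51, against 0.11 left and right), and the point farthest left was not called.

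Lastly, 84 region probes lay in the window of 300 bases around the start of a RefSeq gene on the same strand and 90 on the opposite strand, by exact match of their 60 bases (build GRCm38.p6). Of these, 40.5% and 46.7% were detected on all 4 control arrays. Of the 36 and 50 that were tested, none was called with let-7a or with siSfpq, where 4.03% and 9.77% of all probes were called. With the replicate block 4 and 2 (11.1% and 4.0%) were called with let-7a, against 16.4% of all probes, and 2 and 4 (5.56% and 8.0%) with siSfpq, against 33.3%.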

How the data were processed

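The deposited scanner files hold the intensity of each spot on 16 single-channel Agilent arrays, as written by Feature Extraction 10.7.3.1 per the file headers, with local background already subtracted in the processed signal. A value table of the series, on the log2 scale and quantile normalized by the authors, served as an alternative. Here the processed signal was set to log2, quantile normalized between arrays, and spots of 1 probe were averaged. Repeat-spot differences were 0.0817 to 0.0958 (root mean square, log2) within an array and 0.0645 to 0.081 between arrays 1 and 2 of a condition, which were therefore averaged as 1 sample. Quantile normalization sets all arrays to 1 distribution, so changes are relative to the other probes.

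Region and gene probes flagged as well above background on every array of 1 condition or more, and with a value on every array, were fitted in 1 model of the 4 conditions with limma 3.58.1 in R 4.3.3 (eBayes with trend) and adjusted by Benjamini-Hochberg over all 32940. The design held no block, and the fit with the replicate number as a block was run beside it. Same-numbered samples of different conditions correlated in their deviations from the condition means (r = 0.297 to 0.727, 18 pairs), against -0.64 to 0.192 for different numbers (36 pairs). The labels give no reason for this pairing, which comes from the data. With 3 samples against 3 an exact permutation test of 1 probe cannot go below p = 0.1, so the model across all probes was used. Their number limits the precision. On simulated data with 200 changed probes, 89 were called at a log2 change of 1 and 177 at a change of 2 for let-7a against control.

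The named regions were, among called region probes that were detected on each array of the 2 conditions and whose samples did not overlap, the 5 largest changes each way with let-7a and with siSfpq and the 2 largest in the other comparisons, each region by its most changed probe. To these were added up to 3 probes per comparison with the largest lower bound of the fold among those seen on all arrays of 1 condition and none of the other, up to 3 regions called or most different on opposite strands, regions at the listed long noncoding RNAs, and probes sharing a miRNA hairpin. For such a bound the dim condition was set, per array, to the higher of its measured value and the lowest signal well above background. The other regions called on both strands and the gene neighbours were named after their values were seen. The members, lists and rules were chosen with earlier results of these data known. Region and probe positions are mm9, from the array's names and descriptions. Gene names were taken from RefSeq accessions for 28004 of the 36587 gene probes with a position, and otherwise from the array. Regions on chromosome 18 were counted and not named.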

Additional observations from a re-analysis of the deposited data

How the results depend on the processing

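The counts of called region probes depended on how replicates were handled. In the order let-7a against control, siSfpq against control, both against control and both against let-7a, 79, 389, 20 and 57 were called. Shares in parentheses are those of all probes tested that were called under the same setting. With the replicate number as a block these were 622, 1632, 272 and 400, with the slide as a block and arrays 1 and 2 counted separately 753, 1816, 348 and 538 (where 20.4%, 37.98%, 8.62% and 14.5% of all probes were called), and with those arrays counted separately and no block 388, 1313, 197 and 381 (where 14.0%, 30.1%, 5.52% and 10.3% of all probes were). With replicates 1, 2 and 4 only they were 747, 2089, 506 and 795. Leaving out 1 replicate at a time gave 0 to 747, 0 to 2089, 0 to 506 and 0 to 795, the lowest without replicate 4 and the highest without replicate 3. For the interaction this range was 0 to 814, with 814 from replicates 1, 2 and 4 only, 111 with the slide as a block on 16 arrays, 26 with arrays 1 and 2 separate and 1 without a filter (2.14%, 0.525% and 0.0108% of all probes in the last 3). Without a filter 202 were called with siSfpq and 36 for both against let-7a (2.78% and 0.605% of all probes), and more probes are tested then. Fitting only the groups compared gave 0 with siSfpq, 11 with both and 32 for both against let-7a (0.00304%, 0.589% and 1.37% of all probes). A log2 change of at least 1 left 44 with let-7a and 226 with siSfpq (2.14% and 4.27% of all probes). The cause of these changes was not tested.

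Of the 28 named changes none turned its direction under the settings run. Those that lost the threshold were 28 without replicate 4, 16 with only the groups compared, 12 without a filter, 5 with 75th percentile scaling, 5 without replicate 1, 4 in the authors' values, 2 after normexp and 2 with the threshold on size. With the replicate block all 28 stayed past it. The number of region probes well above background in control was 6251 to 6706 with 1 array left out, against 6236, and 9315 when positive and significant against background, 6949 on at least 3 of 4 arrays and 4971 above the 99th percentile of negative control spots. Regions with both strands detected were 554 by the flag, 820, 615 and 429 by these definitions, and 554 to 589 with 1 array left out.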
